A study of Saccharomyces cerevisiae with 4 samples.

Results

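The breaks described here are those beside 10 genes of purine nucleotide synthesis in budding yeast: ADE4, ADE8, ADE2, ADE1, ADE13, ADE16, ADE17, ADE12, IMD3 and GUA1. The genes were taken from a fixed list of names, and for each gene the 5′ ends of uniquely mapped Spo11 oligos were counted in its open reading frame (ORF) and in its 5′ gap, the stretch between its start codon and the neighbouring protein-coding gene. They are 10 of 5565 genes that have such a gap on the 15 chromosomes where gene positions and oligo map were in register. Spo11 cuts both DNA strands at the start of meiotic recombination and leaves bound to a short oligo, so the 5′ end of each oligo marks a cut.

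The oligos came from an SK1 diploid (MATα/MATa) in 4 datasets. Culture 1 gave 3 of them, which differ only in ligation or PCR, and a separate culture 2 gave 1. All samples share 1 homozygous genotype. It carries SPO11-HA3-His6::kanMX, the tagged allele used for purification, the insertions his4X::LEU2, leu2::hisG and ho::LYS2, a deletion of NUC1 written nuc1Δ::LEU2, and the alleles arg4-Nsp, ura3 and lys2. None of the 10 genes is among these loci. Cells were taken after 4 h in sporulation medium, and no mutant, treatment or earlier time was compared.

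The deposited read list pools the datasets and held 2024944 oligos. The first 7 characters of a read name give the sequencing run: E8YXO9P (395612 reads), FE8RWPF (587674), FFA0GWK (566308) and FIDXMPL (475350). The labels do not say which dataset or culture a run belongs to, so runs are given as single values, and intervals cover counting error only. RPM means oligos per 1000000 mapped oligos. Where each position and strand is counted once, it means per 1000000 distinct combinations of position and strand. The reads were mapped to S288C, and which parts of these gaps differ in SK1 was not checked.

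De novo purine synthesis builds the purine ring stepwise on phosphoribosyl pyrophosphate (PRPP), a sugar phosphate, and ends in inosine monophosphate (IMP), from which AMP and GMP are made in separate branches. In budding yeast most ADE genes are activated by the transcription factors Bas1 and Pho2 when adenine is scarce. Mutants of ADE1 or ADE2 accumulate a red pigment, which made these genes classic markers in yeast genetics. Spo11 cuts mainly in nucleosome-poor promoters, so a gene's 5′ gap is where breaks are usually looked for.

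Breaks at the 10 genes lay almost wholly upstream of the coding sequence and differed widely in number. GUA1 and IMD3, of the GMP branch, had the most oligos of the 10 in the 5′ gap when all runs were pooled, followed by ADE12 and ADE8, while ADE13 and ADE16 had few. The 10 gaps spanned 5861 bp in all and held 8756 oligos, 0.432% of the series, and 45.7% of these lay at GUA1 and IMD3. The median was 319 RPM over the 10 genes, against 94.3 RPM over all 5565 genes, and 8 of the 10 lay above that all-gene median, as did 49.9% of all genes. A hotspot was called in the 5′ gap of 9 of the 10 genes, against 73.8% of all genes, so most genes have one. A hotspot is a stretch where smoothed oligo density reached 2.3 times the mean and which held at least 10 RPM. It was given to the gap holding its summit or, failing that, to the nearest gap. Shares over all genes can thus include hotspots with a summit inside a gene. At the 9 genes the summit lay inside the gap. The genes were listed with earlier results of these data known, so no test of the list was made.

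**Figure D1:**
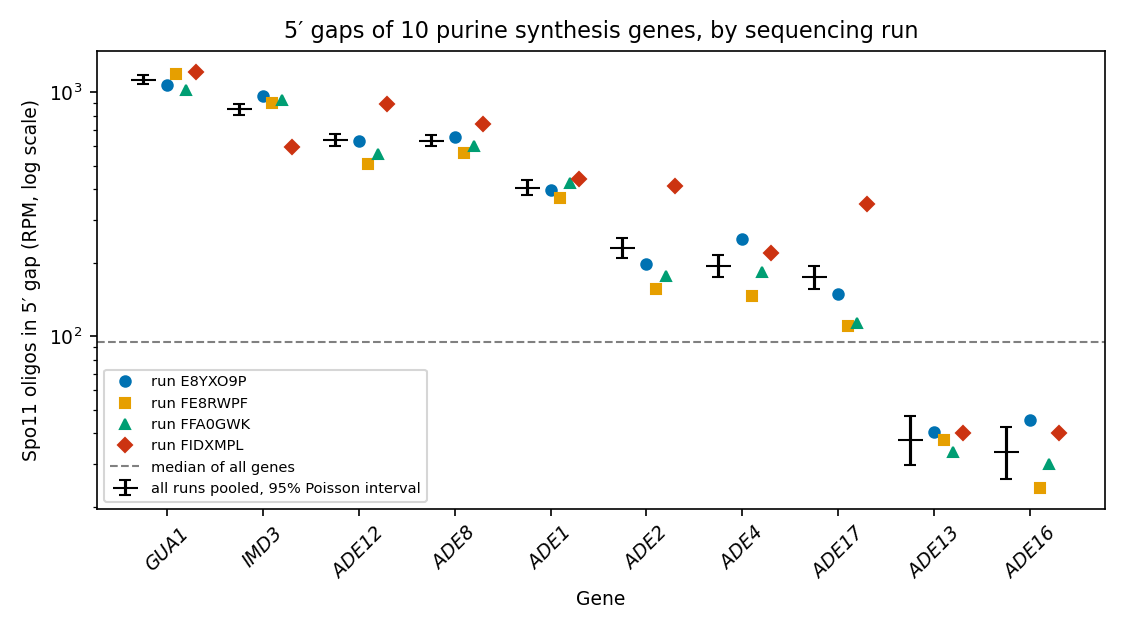
Spo11 oligos in the 5′ gap (RPM, log scale) of each of the 10 genes, pooled (black bar with 95% Poisson interval) and in each of the 4 sequencing runs (coloured points). GUA1 is highest at 1125 RPM and ADE16 lowest at 33.6 RPM pooled, and the diamonds of run FIDXMPL stand above the other runs at ADE2 and ADE17 and below them at IMD3. The dashed line marks the all-gene median of 94.3 RPM.

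Gap orientation differed among the genes. The 5′ gaps of 6 genes (ADE8, ADE1, ADE13, ADE12, IMD3, GUA1) were divergent, shared with the 5′ end of a neighbour, and those of 4 (ADE4, ADE2, ADE16, ADE17) were tandem, with the 3′ end of a neighbour on the other side. A hotspot was called in 6 of the 6 divergent gaps, against 81.3% of all genes with such a gap, and in 3 of the 4 tandem gaps, against 65.7%. The divergent ones had a median of 636 RPM, against 139 RPM for all 2894 genes with a divergent gap. The tandem ones had a median of 184 RPM, against 62.7 RPM for all 2671 genes with a tandem gap. In a divergent gap the breaks cannot be assigned to either of the 2 genes.

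ADE4 encodes the amidotransferase that commits PRPP to purine synthesis. Its tandem gap of 463 bp, up to ATM1 (a mitochondrial ABC transporter gene), held 393 oligos (95% Poisson interval 355 to 434), or 194 RPM. Values by run were 250.2 RPM in E8YXO9P, 146 in FE8RWPF, 184 in FFA0GWK and 219 in FIDXMPL. The run values therefore spread 1.71-fold, from FE8RWPF as the lowest to E8YXO9P as the highest. The hotspot spanned XIII 867298 to 867580 with 354 oligos and ranked 1320th of 3626 hotspots.

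ADE8 encodes the transformylase that adds a formyl group to glycinamide ribonucleotide. Its divergent gap of 546 bp, shared with the SUMO ligase gene SIZ1, held 1284 oligos (1215 to 1356), or 634 RPM. The runs gave 655 RPM in E8YXO9P, 565 in FE8RWPF, 602 in FFA0GWK and 741 in FIDXMPL. More reads fell here than beside 91.9% of genes. The hotspot (IV, 1288907 to 1289367) filled most of the gap with 461 bp, and the next hotspot summit lay 1087 bp away on its left.

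ADE2, the carboxylase gene, and ADE1, which encodes the next enzyme of the pathway, SAICAR synthetase, had middle values. The tandem gap of ADE2 towards AFI1 held 467 oligos (426 to 511) in 685 bp, or 231 RPM. Its hotspot (XV, 566294 to 566515) had 439 of them. The divergent gap of ADE1 and BUD14, a gene for a regulator of protein phosphatase 1, held 824 oligos (769 to 882) in 503 bp, or 407 RPM. Its hotspot (I, 168999 to 169249) had 811. At ADE1 the runs were close to each other, at 399 RPM in E8YXO9P, 368 in FE8RWPF, 426 in FFA0GWK and 440 in FIDXMPL.

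ADE13 encodes adenylosuccinate lyase, which acts both on the way to IMP and in the AMP branch. Its gap held 76 oligos (59.9 to 95.1), or 37.5 RPM, with 33.6 to 40.4 RPM in the runs, so all runs lay below the all-gene median. The value depends on where the gap is placed: it was 0 RPM with the gene table moved by 100 bp and 70.1 RPM with it moved by −100 bp, and the best local fit between map and table was −50 bp. This gap is only 231 bp long because the gene table lists a reading frame, YLR358C, which overlaps the 3′ end of RSC2 (a chromatin remodeller subunit gene). The hotspot (XII, 843965 to 844141) had 142 oligos and ran into that frame. With YLR358C left out, a choice made after these values were seen, the gap reached RSC2 as a tandem gap of 281 bp with 133 oligos, or 65.7 RPM.

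ADE16 and ADE17 encode isozymes that complete IMP, and each is flanked on its 5′ side by a copy of the ribosomal protein L15 gene. The gap of ADE16 towards RPL15A held 68 oligos (52.8 to 86.2) in 660 bp, or 33.6 RPM, with 23.8 to 45.5 RPM in the runs. The gap of ADE17 towards RPL15B held 353 oligos (317 to 392) in 453 bp, or 174 RPM, with 111 to 347 RPM in the runs. Every run thus gave ADE17 more oligos than ADE16. ADE17 had a hotspot (XIII, 509450 to 509678, 335 oligos) and ADE16 had none under the rule used. ADE16 gained a hotspot with each position and strand counted once, in run FIDXMPL alone, with reads of 25 to 40 nt only, with a narrower smoothing window and with a minimum of 5 RPM. The densest segment of the ADE16 gap held 13 oligos in 29 bp (6.42 RPM), under the minimum of 10 RPM, whereas the weakest hotspot among the other 9 genes, at ADE13, had 70.1 RPM. The 5′ gap of RPL15A was also low, at 58.8 RPM without a hotspot, and that of RPL15B had 410 RPM. The surroundings differed too: 10 kb on either side held 30.4 RPM per kb at ADE16 and 132 at ADE17. At 5 of the 10 genes the surroundings lay below the series mean of 83.3 RPM per kb. These included ADE16 but also ADE1 (26.2) and GUA1 (51.0), which had the most oligos in its gap. ADE13, with few oligos in its gap, had 126. Whether surroundings and gap values are related was not tested.

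ADE12 encodes adenylosuccinate synthase, the entry to the AMP branch. Its divergent gap of 717 bp, shared with the RNase P subunit gene POP1, held 1291 oligos (1222 to 1363), or 638 RPM. By run, the gap had 629 RPM in E8YXO9P, 509 in FE8RWPF, 560 in FFA0GWK and 896 in FIDXMPL. The hotspot (XIV, 233753 to 234281) had 1254 oligos and ranked 340th, next to that of ADE8 at 330th, and the counting intervals of ADE12 and ADE8 overlapped.

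IMD3 and GUA1 act in the GMP branch and had the highest pooled levels of the 10. IMD3 encodes an IMP dehydrogenase and GUA1 the GMP synthase that follows it. The divergent gap of IMD3 and the autophagy gene ATG23 held 1722 oligos (1642 to 1805) in 853 bp, or 850.4 RPM. The runs gave 963 RPM in E8YXO9P, 902 in FE8RWPF, 931 in FFA0GWK and 597 in FIDXMPL. The divergent gap of GUA1 and the protein kinase gene SKY1 held 2278 oligos (2185 to 2374) in 750 bp, or 1125 RPM, more than beside 96.9% of genes. The runs gave 1069 RPM in E8YXO9P, 1191 in FE8RWPF, 1019 in FFA0GWK and 1216 in FIDXMPL. GUA1 was above IMD3 in every run. IMD3 was not next after GUA1 in every setting: in FIDXMPL its 597 RPM lay below ADE12 (896) and ADE8 (741), and with each position and strand counted once its 433 RPM lay below ADE8 (446) and above ADE12 (417). Their hotspots ranked 128th (XIII, 701184 to 701729) and 214th (XII, 1001859 to 1002492).

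In order of pooled level, neighbours whose counting intervals overlapped were ADE12 and ADE8 (638 and 634 RPM), ADE2 and ADE4 (231 and 194 RPM), ADE4 and ADE17 (194 and 174 RPM), and ADE13 and ADE16 (37.5 and 33.6 RPM). The range from GUA1 to ADE16 was 33.5-fold. Per length of gap the median was 614 RPM per kb over the 10 genes, against 199.9 RPM per kb over all genes. On that scale ADE8 (1161 RPM per kb) came above IMD3 (997) and ADE12 (889), whose gaps are longer, and ADE16 was again lowest at 50.9.

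Breaks stood well back from the start codon at all 10 genes. The median 5′ end lay 194 bp upstream at ADE13, 203 at ADE2, 240 at ADE1, 255 at GUA1, 277 at ADE17, 304 at ADE16, 313 at ADE8, 328 at ADE4, 400 at IMD3 and 480 at ADE12. Distances come from gene positions in a table whose build may differ from that of the map. Around the 10 genes the best fits between map and table ran from −70 to 40 bp, so distances may be off by about that much. Each fit took the shift that left the fewest reads inside ORFs, so it is an estimate and not a known bound. The last 100 bp before the start codon held 0 to 5.09% of the oligos of each gap, with ADE4 the highest.

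**Figure D2:**
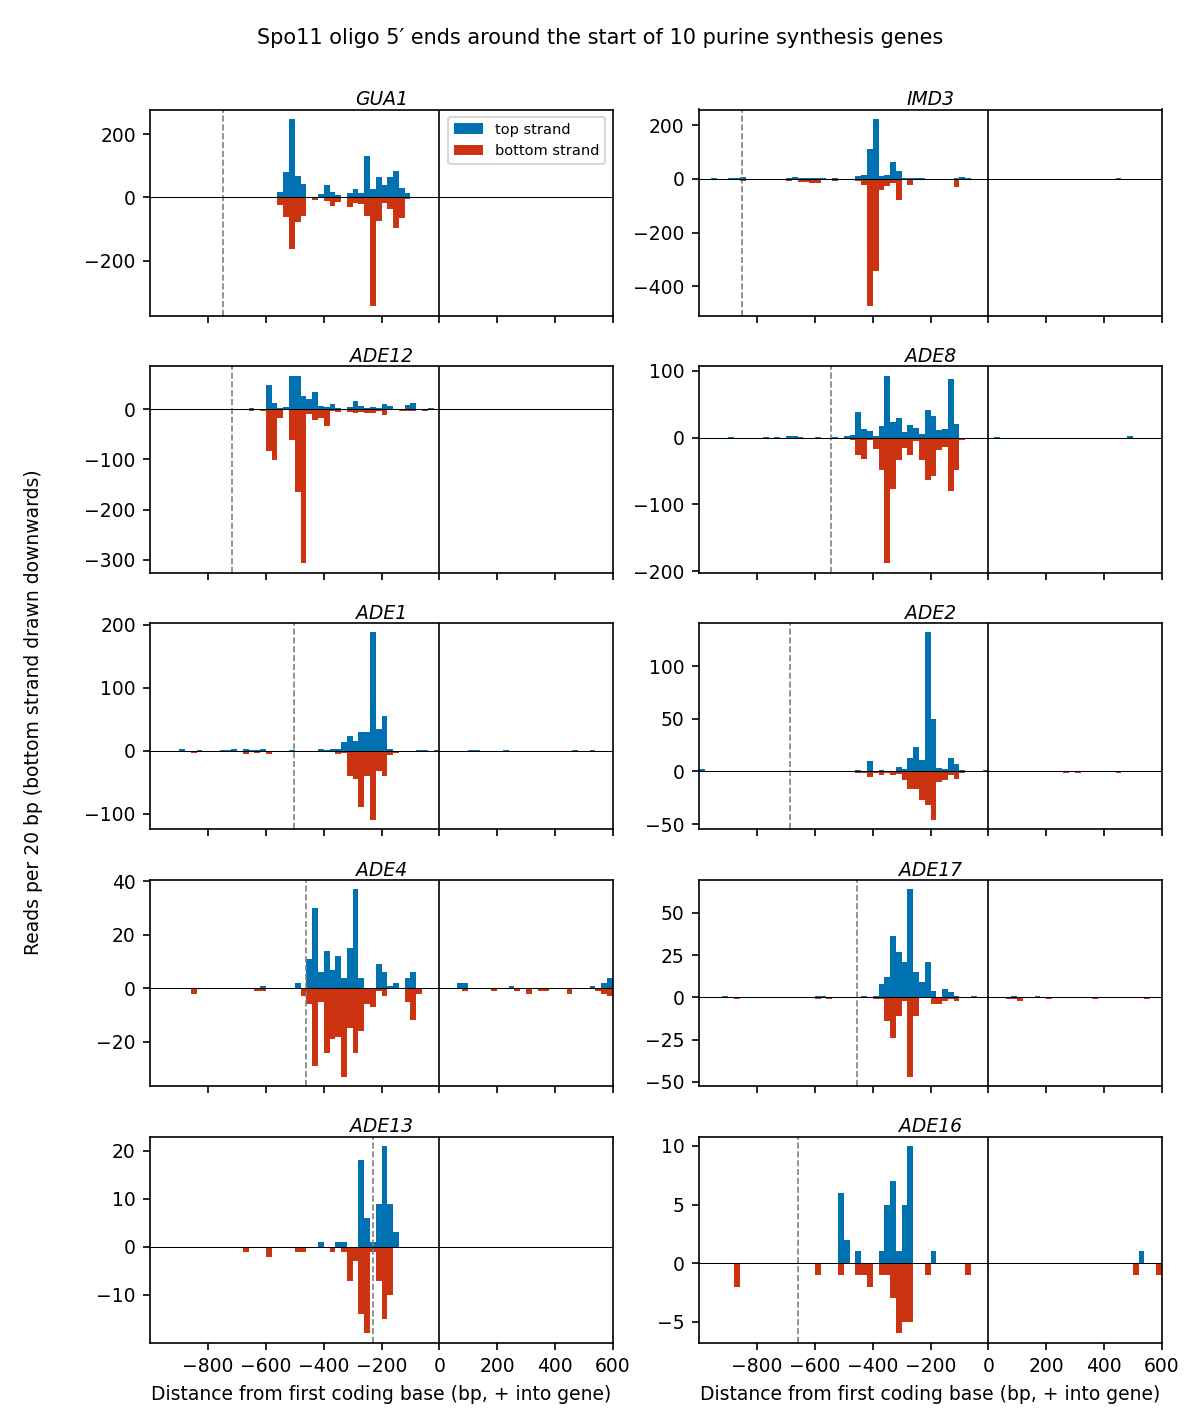
Reads per 20 bp around the first coding base of each gene (x axis, bp, gene to the right), with top-strand 5′ ends upwards in blue and bottom-strand 5′ ends downwards in red, and the far edge of the 5′ gap dashed. Strand names follow the chromosome, also where a gene was turned to point right (ADE2, ADE4, ADE8, ADE16, ADE17). Cuts at ADE1, ADE2 and IMD3, among others, form a narrow cluster, GUA1 has clusters near 500 and 240 bp upstream, and few reads lie right of the start.

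The spread of cuts within the gap also varied. At ADE1, 74.6% of the gap's oligos lay between 200 and 300 bp upstream. At IMD3, 49.1% lay between 300 and 400 bp and 37.7% between 400 and 500 bp upstream, and the 10th and 90th percentiles of distance were 312 and 434 bp. GUA1 had clusters on either side of a sparser part: the 100 bp intervals between 100 and 600 bp upstream held, from the start codon outwards, 454, 784, 164, 273 and 598 of its 2278 oligos. ADE8 had oligos over most of its gap, with 29.9% between 100 and 200 bp, 18.0% between 200 and 300 bp and 41.4% between 300 and 400 bp upstream. The cluster at ADE12 lay towards the POP1 side of the 717 bp gap, with 52.4% between 400 and 500 bp and 31.0% between 500 and 600 bp upstream.

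Few positions carried much of the signal at some genes. At IMD3, 4 of 223 position and strand combinations held at least 50% of the gap's reads, and bottom-strand position XII 1002140 alone had 361 of the 1722 reads (95% Wilson interval of the share 19.1 to 23.0%). At ADE2 top-strand position XV 566394 had 93 reads (19.9%). At ADE12 bottom-strand position XIV 233938 had 232 (18.0%). ADE8 and ADE17 were the least concentrated, with 5.76% and 4.53% of reads at the most hit position. The most hit position ranked first in every run at 3 genes, ADE2, ADE12 and GUA1. At GUA1 this position (XIII 701551, bottom strand) had 78, 113, 59 and 67 reads in runs E8YXO9P, FE8RWPF, FFA0GWK and FIDXMPL. PCR copies cannot be told from separate oligos, and reads per distinct position went from 1.7 at ADE16 to 7.72 at IMD3.

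Reads were split unevenly between strands in 7 of the 10 gaps. Top and bottom mean the strands of the chromosome, whichever way the gene points. ADE2, ADE4, ADE8, ADE16 and ADE17 are coded on the bottom strand and the others on the top strand. Across all 3835 gaps with at least 20 reads, 38.2% were called by the same test (two-sided exact binomial test against an even split, Benjamini-Hochberg adjusted over all gaps, threshold 0.05). The test passes smaller imbalances where reads are many. The gaps of the 10 genes had a median of 645.5 reads, against 191 over all genes, so the shares called are not directly comparable. The largest imbalances favoured the bottom strand, with 389 top-strand and 902 bottom-strand reads at ADE12 (30.1% top strand, exact adjusted p = 3.04e-45) and 536 and 1186 at IMD3 (31.1%, exact adjusted p = 3.30e-54). ADE8 had 38.2% top-strand reads, ADE4 42.7% and GUA1 46.3% (exact adjusted p = 4.58e-16, 0.0146 and 0.00189). ADE17 with 64.9% and ADE2 with 58.7% leaned to the top strand (exact adjusted p = 2.15e-07 and 0.000914). At ADE2, 93 of the 274 top-strand reads lay at 1 position, against 193 bottom-strand reads in all. At GUA1, 317 of the 1223 bottom-strand reads lay at 1 position, against 1055 top-strand reads. Without that position the other strand had more reads in both gaps. The other called genes kept their side without their most hit position. The call at ADE4 was lost without run E8YXO9P (exact adjusted p = 0.0775) and without FFA0GWK (0.156). ADE1 (48.9%), ADE13 (56.6%) and ADE16 (57.4%) did not pass. The median distance of the top-strand share from 50% was 8.01 percentage points over the 10 gaps, against 6.92 over all gaps tested. With each position and strand counted once, none of the 10 gaps and 0% of 3575 gaps passed the exact binomial test, while 2 of the 10 and 212 gaps had an unadjusted p under 0.05. That setting discards the reads behind the most hit positions. With all reads counted, the test takes each read as independent, which PCR copies are not, so its p-values cover counting error only.

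Mean oligo length at these genes was close to that of the series, while the shares of length classes varied more. The mean was between 29.7 and 31.1 nt at the 10 genes, against 30.5 ± 6.27 nt (SD over reads) in the series. The class of 25 to 32 nt was widest apart at IMD3, where it made up 72.5% of reads (95% Wilson interval 70.4 to 74.6%), against 59.9% in the series. It was 64.2% at ADE8 (61.5 to 66.8%) and 63.7% at GUA1 (61.7 to 65.7%). At the other 7 genes the interval held the value of the series. Since few positions make up most reads at IMD3, its lengths describe few cuts.

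Coding sequences received very few cuts. The 10 ORFs spanned 14271 bp and held 149 oligos in all, and 23 of these lay in the first 200 bp of an ORF. The median ORF density was 4.45 RPM per kb over the 10 genes, against 4.97 RPM per kb over all genes. The density of the 5′ gap exceeded that of the ORF at 10 of 10 genes, as at 5270 of 5565 genes in all, and the median log2 ratio was 7.07 (134-fold) against 4.85 (28.9-fold) over all genes, with 1 read added to each count. Without the added read, the ratio of densities went from 11.4-fold at ADE16 to 529-fold at IMD3, where the ORF had 6 reads (95% Poisson interval 2.20 to 13.1).

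ADE4 was the exception within the ORFs. It held 55 reads (41.4 to 71.6), 17.7 RPM per kb, with 9, 19, 16 and 11 in runs E8YXO9P, FE8RWPF, FFA0GWK and FIDXMPL, and with the frame divided into 5 equal parts, the parts held 8, 21, 18, 1 and 7 reads from start to stop codon. In the other ORFs the count was 6 to 16 reads. Of the 16 reads in ADE16, 10 lay in part 2 of 5. ADE16 and ADE17 resemble each other, as do the IMD genes, and reads that match both copies could not map uniquely, so ORF counts of ADE16, ADE17 and IMD3 may be too low.

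**Figure D3:**
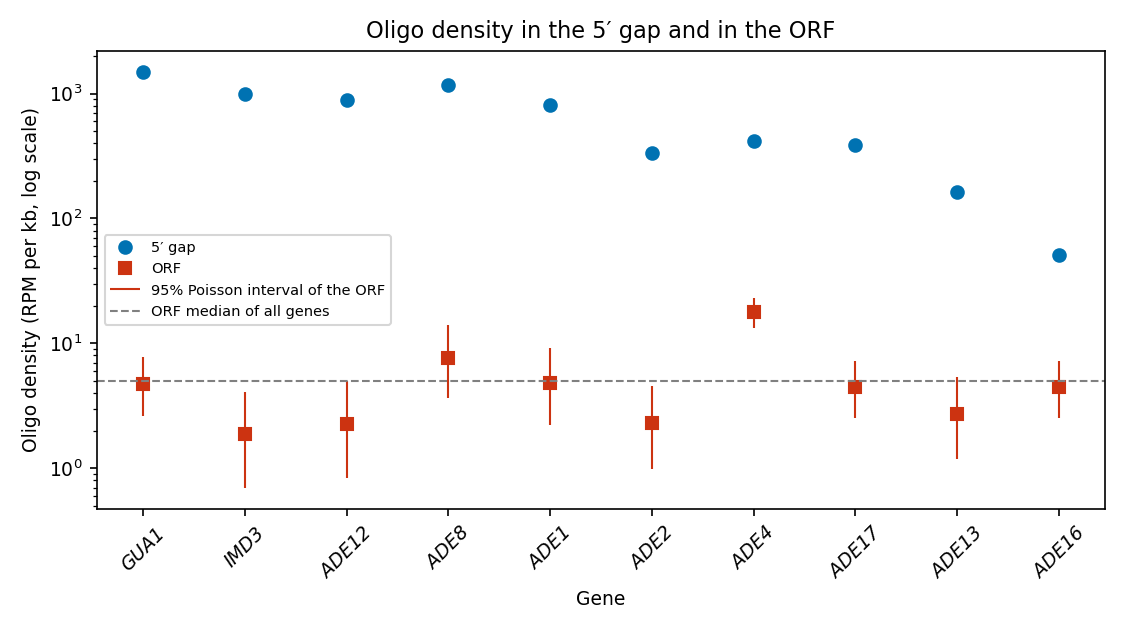
Oligo density (RPM per kb, log scale) in the 5′ gap (circles) and the ORF (squares with 95% Poisson interval) of each gene. All circles lie above the squares, the ORF of ADE4 stands out at 17.7 RPM per kb, and the dashed line is the all-gene ORF median of 4.97 RPM per kb.

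The gap on the 3′ side was nearly empty where the neighbouring gene converged. ADE1, ADE12 and ADE17 had 2 oligos there and ADE2 had 3. GUA1 and IMD3 had 0, which allows up to 3. Where the next gene pointed the same way, the 3′ gap also held that gene's 5′ end: 233 oligos lay between ADE8 and TRS120, 314 between ADE16 and AAT2, 47 between ADE4 and DYN3 and 40 between ADE13 and VPS38. ADE16, which had the fewest oligos on its 5′ side, thus had more on its 3′ side.

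The 5′ gap share differed between run FIDXMPL and the other runs at 5 of the 10 genes. By the same test 27.6% of 3835 gaps were called (two-sided Fisher's exact test of reads in and outside the gap, Benjamini-Hochberg adjusted over all gaps). This test too passes smaller differences where reads are many, and the 10 genes had a higher median read count than all genes. The shares called are therefore not directly comparable. Folds between runs add 1 read to each count. FIDXMPL was higher at 4 genes (15.3% of all gaps) and lower at 1 (12.3% of all gaps). At ADE17 it had 347 RPM, against 149 RPM in E8YXO9P, 111 in FE8RWPF and 113 in FFA0GWK, 2.86-fold over the other runs together (Fisher's exact test, adjusted p = 1.71e-19). At ADE2 it had 414 RPM, against 197, 157 and 177 RPM in those runs, 2.38-fold higher (Fisher's exact test, adjusted p = 3.55e-17).

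ADE12 (1.61-fold, Fisher's exact test, adjusted p = 4.03e-13) and ADE8 (1.23-fold, adjusted p = 0.00608) were also higher in FIDXMPL. IMD3 was lower, with 597 RPM in FIDXMPL and 928 RPM in the other runs together (0.646-fold, Fisher's exact test, adjusted p = 5.16e-11). The others did not pass Fisher's exact test: GUA1 was at 1.11-fold (adjusted p = 0.101), ADE1 at 1.11-fold (0.382), ADE4 at 1.18-fold (0.340), ADE16 at 39.97 RPM against 31.6 RPM (0.597) and ADE13 at 1.12-fold (0.904). Without FE8RWPF, GUA1 passed as well (log2 ratio 0.23, Fisher's exact test, adjusted p = 0.0146). The median size of the log2 ratio between FIDXMPL and the other runs was 0.34 over the 10 gaps, against 0.36 over all gaps tested. With each position and strand counted once per group of runs, only ADE17 of the 10 genes passed (log2 ratio 0.97, Fisher's exact test, adjusted p = 0.0139), as did 1.18% of all gaps. The other runs together hold more reads than FIDXMPL, and counting once can remove more repeats from the deeper group. Ratios and calls in this setting are therefore not directly comparable with those from all reads. The test compares sequencing runs, not cultures, and the part of PCR copies in these differences was not tested.

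Other genes of purine metabolism, from a list of 26, also had both high and low values. Of these, 3 (PRS1, MTD1 and BAS1) lie on chromosome XI, where genes were not placed. A hotspot was given to the 5′ gap of 19 of the other 23, against 73.8% of all genes. At ADE3 the summit of that hotspot lay 299 bp inside the ORF. Their median was 189.6 RPM, against 94.3 RPM for all genes. Among 9 further genes of synthesis and PRPP supply, IMD4, a paralog of IMD3, was highest at 360.0 RPM, and PRS4, of PRPP supply, lowest at 26.7 RPM with no hotspot. The 3 genes of one-carbon supply had hotspots, with the lowest level at MIS1 (111 RPM) and the highest at SHM1, a serine hydroxymethyltransferase gene (254 RPM).

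Among 9 salvage and interconversion genes the range was wider. ADO1, the adenosine kinase gene, had 2066 RPM in a gap shared with SOD1, superoxide dismutase, and AAH1, adenine deaminase, had 15.3 RPM. AAH1 and XPT1, of xanthine salvage, had no hotspot. Of the regulators, PHO2 had 980 RPM, and GCN4, the activator of amino acid genes, had 6.42 RPM and no hotspot. IMD2, another paralog of IMD3, named here for that reason, lies near a chromosome end and had 41.5 RPM in its gap, but the best fit between map and table was −150 bp there, so this value is less sure than that of IMD3.

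**Figure D4:**
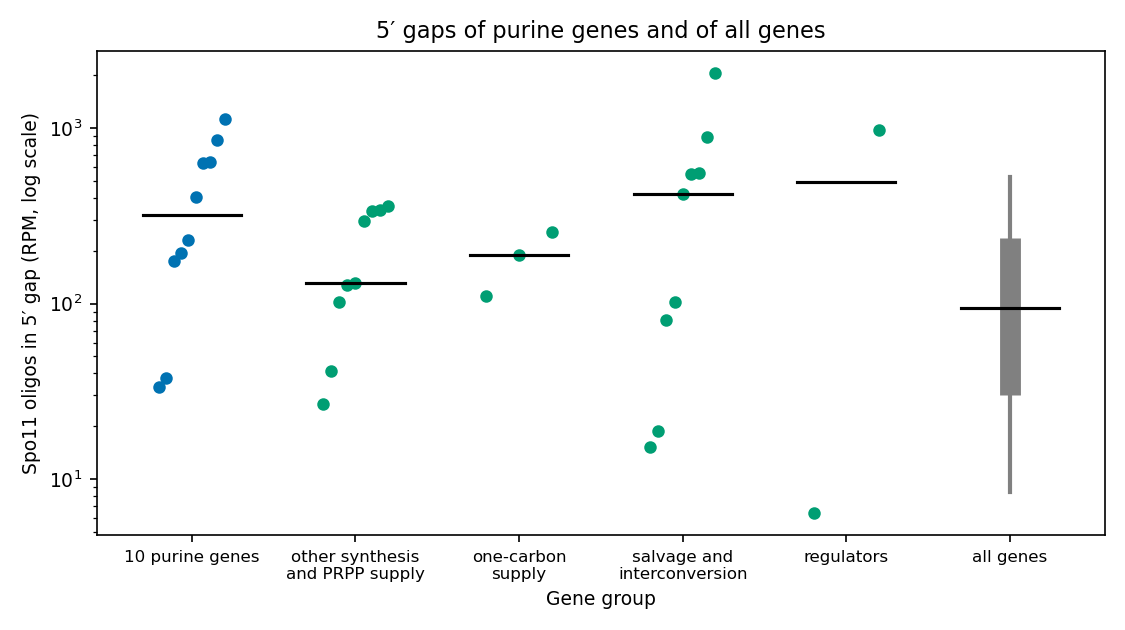
Spo11 oligos in the 5′ gap (RPM, log scale) of the 10 genes (blue), of other purine genes by role (green) and of all 5565 genes (grey: box from the 25th to the 75th percentile, thin line from the 10th to the 90th), with medians in black. The 10 genes have a median of 319 RPM and all genes 94.3 RPM, and the 10 genes span values on both sides of the all-gene median.

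Of the other purine genes, 22 gaps had enough reads for the test between runs, and FIDXMPL was higher at 7 and lower at 1, against 15.3% and 12.3% of all gaps tested. These genes also had a higher median level than all genes, and the test passes smaller differences where reads are many. SHM2, the paralog of SHM1, was 2.91-fold higher (381 RPM in FIDXMPL, 131 in the other runs; Fisher's exact test, adjusted p = 5.18e-22) and ADE6, of the synthesis pathway, 2.05-fold higher (adjusted p = 1.20e-06). FCY2, the purine-cytosine permease gene, was 0.532-fold, with 250.3 RPM in FIDXMPL and 474 RPM in the other runs (Fisher's exact test, adjusted p = 1.56e-10). These 3 were picked after their values were seen.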

How the data were processed

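The authors deposited a list of uniquely mapped reads with 1 score per read, whose meaning the file headers do not give and which was not used, and a curated map of raw hit counts per position, both strands together, per the file headers. Both pool the 4 datasets and name S288C; neither aligner nor build is named in the sources used here. Reads were counted at the listed start (top strand) or end (bottom strand). Genes came from the R64 table of RefSeq, used for names, order and spacing only; genes inside another were dropped, and chromosome XI was left out because map and table lose register there. Register was fitted in 50 kb around each gene with at most 10 reads per position. Hotspots used a Hann window of 201 bp, a threshold of 2.3 times the mean over 12 Mb, merging within 200 bp, a width of at least 25 bp and at least 10 RPM, and were given to the gap that holds the summit or, failing that, the nearest. Exact tests ran in SciPy 1.17.1 (Python 3.11.15) on gaps with 20 or more reads. They were tried on simulated independent reads without PCR copies, so false calls from such copies were not examined. Promoter sequence and motifs were not analysed here. The 10 genes, the lists and settings were chosen with earlier results of these data known. The named genes were the 10 genes, the genes across their gaps, and other purine genes highest, lowest or without a hotspot in their group. Alternatives varied the reads, runs, file, gene positions, lengths, hotspot rule, pseudocount and read minimum.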

Additional observations from a re-analysis of the deposited data

Results flagged for a closer look

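The curated map held 35 hits at 19 positions of the IMD3 5′ gap, 110 to 210 bp upstream of the start codon, where the read list had no read. This was marked because the counts above rest on the list. The positions were picked for having no read in the list, and map and list pool the same datasets. A counting bound therefore does not apply to the 35 hits. In all, the map had 1761 hits in that gap and the list 1722 reads.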

How the results depend on the processing

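Hotspot counts were 9 or 10 of 10 genes under every alternative run, and ADE16 was the gene gained where it was 10. With the gene table moved, this says little. A summit outside every gap goes to the nearest gap, so the count can stay the same even where a gap loses its reads. The 5′ gap of ADE13 held 0 RPM with the gene table moved by 100 bp and 70.1 RPM with it moved by −100 bp. The median 5′ gap value was 260.0 RPM with each position and strand counted once, 262 in run FE8RWPF alone, 427 in FIDXMPL alone and 292 to 342 with 1 run left out. The median ORF density was 15.3 RPM per kb with positions counted once, 2.26 in FE8RWPF alone, 2.68 in FIDXMPL alone, 6.57 with the gene table moved by −100 bp and 2.79 with reads of 25 to 40 nt. RPM with positions counted once has another total, the distinct combinations of position and strand. Its level therefore cannot be set against values from all reads. The log2 ratio of gap to ORF was 4.90 with positions counted once and 6.36 in FE8RWPF alone. Positions counted once left 0 strand calls and 1 run call. The cause was not tested. The top-strand share changed side at ADE1 (52.8%), ADE2 (49.6%) and GUA1 (53.7%) with positions counted once, at ADE1 with 1 run left out (47.3 to 52.4%; 52.4% without FIDXMPL) and at ADE13 with the table moved by −100 bp (47.2%). The log2 ratio of FIDXMPL to the other runs turned at ADE13 with that move (−0.10) and without YLR358C (−0.30), an alternative chosen after seeing the data. The strand call of ADE4 was lost without E8YXO9P, without FFA0GWK and with that move. GUA1 gained the run call without FE8RWPF. No paired analysis was possible because no read carries a dataset label. ORF counts of 6 to 16 reads limit any comparison among ORFs.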
